A study of Mus musculus with 6 samples.

Results

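The genes described here are the SLC25 carriers, the family of proteins that move nucleotides, phosphate, metabolites and cofactors across the inner mitochondrial membrane. They were chosen by symbol: every protein-coding gene whose name begins with Slc25a, except Slc25a28, Slc25a37, Slc25a38 and Slc25a39, which serve iron and heme, gave 43 genes of the 54232 listed in each library. RNA was sequenced from E13.5 mouse fetal liver cells of the strain C57/B6, depleted of cells bearing Ter-119 (an antigen that red cell precursors gain late), and labelled as progenitor cells. Compared were 3 libraries of these cells at day 0 with no treatment, and 3 libraries made after 30 h of culture with erythropoietin (EPO), with the solvent DMSO added at 24 h and present for the last 6 h. The series concerns chromatin and nuclear condensation during the last steps of red cell formation, and the caspase inhibitor Z-VAD-FMK, for which DMSO is the control, was not analysed here.

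SLC25 proteins share a fold of repeated membrane-spanning helix pairs that opens alternately to the cytosol side and to the matrix. Most work as exchangers, so that 1 molecule leaves for each that enters: ADP against ATP, malate against oxoglutarate, aspartate against glutamate. They are made in the cytosol and threaded into the inner membrane by a dedicated import route, and developing red cells depend on them because heme synthesis begins and ends inside the mitochondrion, while the mature red cell has lost its mitochondria.

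Library totals were between 27754279 and 29949173 counts at day 0 and between 19241780 and 24154481 at 30 h. Levels are given in CPM, counts set relative to the library total, with totals scaled by TMM, a method that sets libraries to a common level over most genes, as mean ± SD with n = 3 per group. Libraries of the 30 h group spread more than those of day 0: the median coefficient of variation of the 38 carriers tested was 4.18% at day 0 and 14.5% at 30 h. By chi-square per degree of freedom on raw counts, 30 h replicate 3 stood apart (87.9 and 48.7 against replicates 1 and 2, which gave 10.98 between them). No label states whether replicate libraries stem from separate animals or cultures, so p-values here cover only the spread between libraries, which may be technical.

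Markers of 7 cell types were read beside the carriers. By the edgeR test described below, 34.4% of all genes tested were higher at 30 h and 40.1% were lower. All 7 erythroid markers rose, their summed level going from between 868 and 980 CPM to between 86165 and 126070 CPM. Hepatoblast markers all fell (8 of 8, from between 12886 and 14499 CPM summed to between 757 and 2215 CPM), as did 5 of 6 mesenchymal markers (from between 1440 and 1837 to between 23.3 and 56.0 CPM) and 6 of 6 endothelial markers (from between 168 and 194 to between 30.3 and 38.4 CPM). Among these, Cps1, Dcn, Cdh5, Stab2 and Lyve1 passed the filter on low counts only through day 0, where they were high. Their calls are therefore no separate support for a fall. Macrophage markers split into 3 higher and 2 lower of 7 (between 197 and 218 CPM summed at day 0, between 145 and 217 CPM at 30 h), megakaryocyte markers into 1 higher and 3 lower of 5 (between 515 and 615 CPM, then between 552 and 948 CPM), and granulocyte and mast cell markers into 0 higher and 4 lower of 5 (between 2465 and 2554 CPM, then between 984 and 1103 CPM). No marker was at 0 in all 6 libraries. Fewer cells of a type and less RNA per cell cannot be told apart in bulk RNA, and the part of these markers in the carrier changes below was not tested.

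Most carriers whose messenger RNA changed over the culture went down. Of the 43 carriers, 38 passed the filter on low counts, and of these 18 fell and 7 rose at 30 h while 13 did not pass the threshold, an adjusted p below 0.05 in edgeR's quasi-likelihood test over all genes. The falls counted include Slc25a27, Slc25a29 and Slc25a48, which passed the filter only through day 0, where they were high. Among all 16150 genes tested, 40.1% were lower and 34.4% were higher by the same rule, 74.5% in either direction, and among protein-coding genes 43.6% were lower and 32.1% higher. The share of carriers called lower, 47.4%, lies near that background, and the share called higher, 18.4%, lies below it, a difference not tested as such. The median log2 change was -0.26 over the carriers tested, -0.09 over all genes tested and -0.20 over the protein-coding genes tested. Groups did not overlap for 26 of the 38 carriers, or 68.4%, against 79.7% of all genes.

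**Figure D1:**
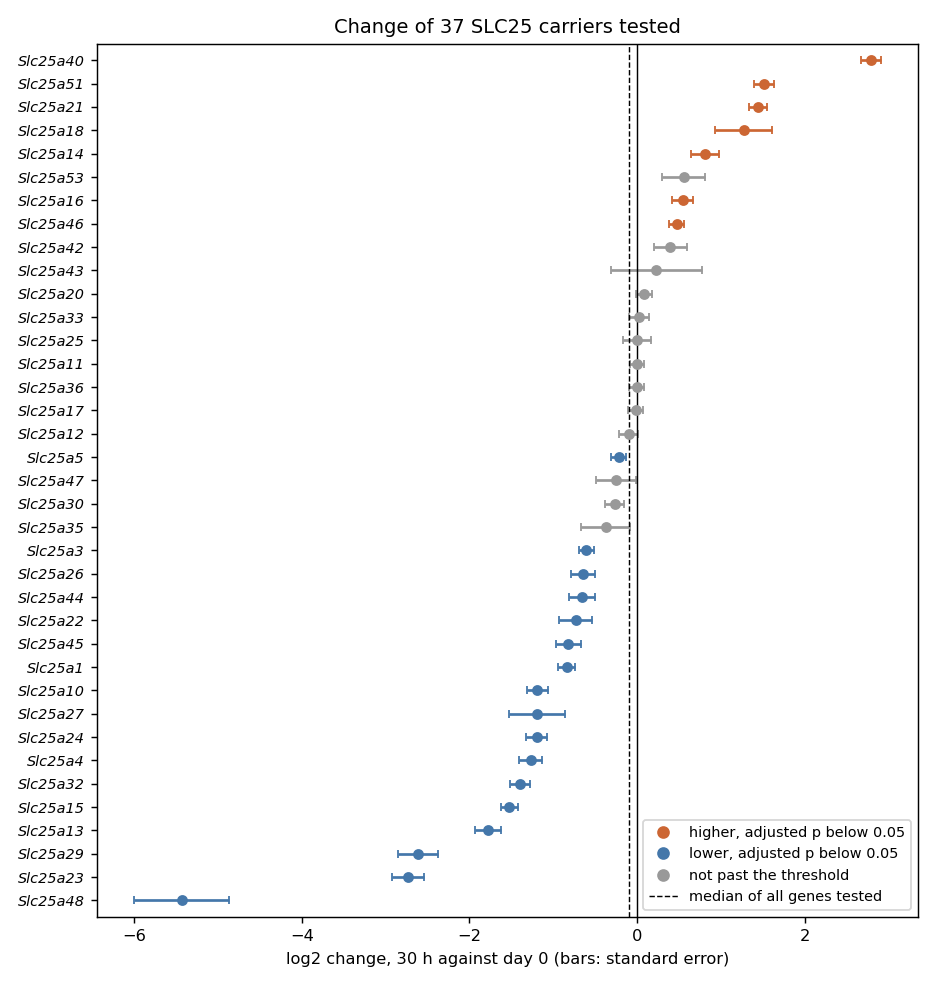
Log2 change between 30 h and day 0 for 37 SLC25 carriers tested (points, x axis) with standard errors (bars), coloured by the edgeR call and sorted by size. The 7 carriers called higher lie right of 0, the 17 shown that were called lower lie left of it, and the dashed line marks the median of all genes at -0.09. The point of Slc25a48 rests on 2 counts at 30 h.

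The summed level of the 43 carriers was 3069 ± 21.8 CPM at day 0 and 2365 ± 72.4 CPM at 30 h. Every 30 h library lay below every day 0 library, with p = 0.1 by exact permutation (two-sided), the lowest value that groups of 3 permit. As a share of raw counts, with no scaling, the sum went from 0.363% ± 0.00209 to 0.199% ± 0.00856. Without scaling the median log2 change of all genes tested was itself -0.58. A few carriers make up most of this sum. Per kilobase of exon, the 5 most abundant carriers of each library held 74.0% ± 0.313 of the family at day 0 and 68.6% ± 1.49 at 30 h.

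Of the 43 carriers, 5 stood above 50 CPM per kilobase of exon at day 0, in the order Slc25a5 (260 ± 7.38), Slc25a4 (162 ± 5.21), Slc25a3 (161 ± 1.34), Slc25a1 (76.8 ± 1.89) and Slc25a11 (56.4 ± 0.944). The neighbours Slc25a4 and Slc25a3 did not differ beyond their spread. At 30 h the order per kilobase was Slc25a5 (223 ± 9.15), Slc25a3 (106 ± 1.73), Slc25a4 (67.5 ± 12.0), Slc25a11 (56.4 ± 1.73) and Slc25a1 (42.9 ± 3.96), and Slc25a4 and Slc25a11 lay within the spread of Slc25a4. Next came Slc25a51, which moved from 10th place to 6th with 41.2 ± 5.78 CPM per kilobase. Across the 38 carriers tested, the levels per kilobase of the groups had a Spearman rho of 0.90, a description over genes that share the same libraries.

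The ADP/ATP carriers exchange the ATP made in the matrix for ADP from the cytosol. Slc25a4 (ANT1, typical of heart and muscle; chromosome 8, 46206797 to 46211284, GRCm38) stood at 396, 377 and 374 CPM in day 0 replicates 1, 2 and 3 and at 131, 157 and 188 CPM in 30 h replicates 1, 2 and 3. It was 2.41-fold lower at 30 h with no overlap of the groups (log2 change -1.27 ± 0.14 SE, edgeR adjusted p = 8.0698e-05). The 30 h libraries kept the same order in their summed hepatoblast markers, at 757, 2031 and 2215 CPM. Summed megakaryocyte markers kept it too, at 552, 829 and 948 CPM. Among the latter, Pf4, Gp9 and Ppbp each kept this order, and Itga2b and Gp1ba did not. The sums of the other marker lists did not keep it. The part of any of these cell types in the level of Slc25a4 was not tested. Slc25a5 (ANT2, the form of dividing cells; chromosome X, 36795651 to 36798807) was the most abundant carrier per kilobase in both groups, at 430, 414 and 438 CPM in the day 0 libraries and 382, 352 and 366 CPM in the 30 h libraries, always in replicate order. Its groups did not overlap either, but the difference was small (log2 change -0.22 ± 0.09 SE, edgeR adjusted p = 0.049958) and passed the threshold under only 7 of 17 other settings. The ratio of Slc25a4 to Slc25a5 therefore shifted within each library: of the counts per kilobase of both genes, Slc25a4 held 39.2%, 38.9% and 37.4% at day 0 and 19.4%, 23.8% and 26.4% at 30 h, a fall of 15.3 percentage points that no scaling can alter (exact permutation p = 0.1, adjusted p = 0.1077 over 14 shares compared). Slc25a31, the germ cell form, had 10 counts over the day 0 libraries and 2 over the 30 h libraries and was not tested. The processed pseudogene Slc25a5-ps, to which reads of Slc25a5 could be assigned, stayed below 0.26 CPM in every library.

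The promoters of both ADP/ATP carriers are shown because the genes encode the same activity and moved unequally. Each window runs 5′ to 3′ on the gene's strand from 250 bases before to 50 bases after the RefSeq start (GRCm38.p6), and capitals mark 4 motifs searched on both strands: AGATAA (bound by GATA factors), CACGTG (an E-box, bound by MYC among others), CCNCACCC (KLF type) and CCAAT. The Slc25a4 window is chr8:46211013-46211312 on the minus strand and the Slc25a5 window chrX:36795347-36795646 on the plus strand.
Slc25a4: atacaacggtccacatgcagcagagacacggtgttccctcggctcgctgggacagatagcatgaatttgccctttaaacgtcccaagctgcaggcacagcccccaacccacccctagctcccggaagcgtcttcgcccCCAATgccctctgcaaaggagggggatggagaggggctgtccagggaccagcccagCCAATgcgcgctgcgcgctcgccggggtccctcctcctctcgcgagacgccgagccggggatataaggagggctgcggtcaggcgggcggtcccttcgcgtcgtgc
Slc25a5: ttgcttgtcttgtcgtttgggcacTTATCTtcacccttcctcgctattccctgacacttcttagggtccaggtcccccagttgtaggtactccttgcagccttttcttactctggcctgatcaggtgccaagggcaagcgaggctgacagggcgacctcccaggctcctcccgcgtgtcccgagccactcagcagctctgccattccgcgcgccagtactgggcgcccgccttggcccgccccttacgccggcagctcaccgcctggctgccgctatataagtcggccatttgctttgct
In capitals, the Slc25a4 window holds CCAAT at 2 places and the Slc25a5 window holds TTATCT, the reverse complement of AGATAA, at 1 place. Windows were found for 33 of the 43 carriers. AGATAA occurred in 9.09% of these 33 genes and 12.7% of all 27025 genes with a window, CACGTG in 21.2% and 8.09%, CCNCACCC in 24.2% and 18.4%, and CCAAT in 54.5% and 41.1%. CACGTG was present in 3 of the 13 carriers with a window that fell (Slc25a1, Slc25a13 and Slc25a15) and in 1 of the 5 that rose (Slc25a14). It was also present in Slc25a33 and Slc25a36, which did not pass the threshold, and in Slc25a31, which was not tested. These matches are descriptions of letters and not of binding.

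**Figure D2:**
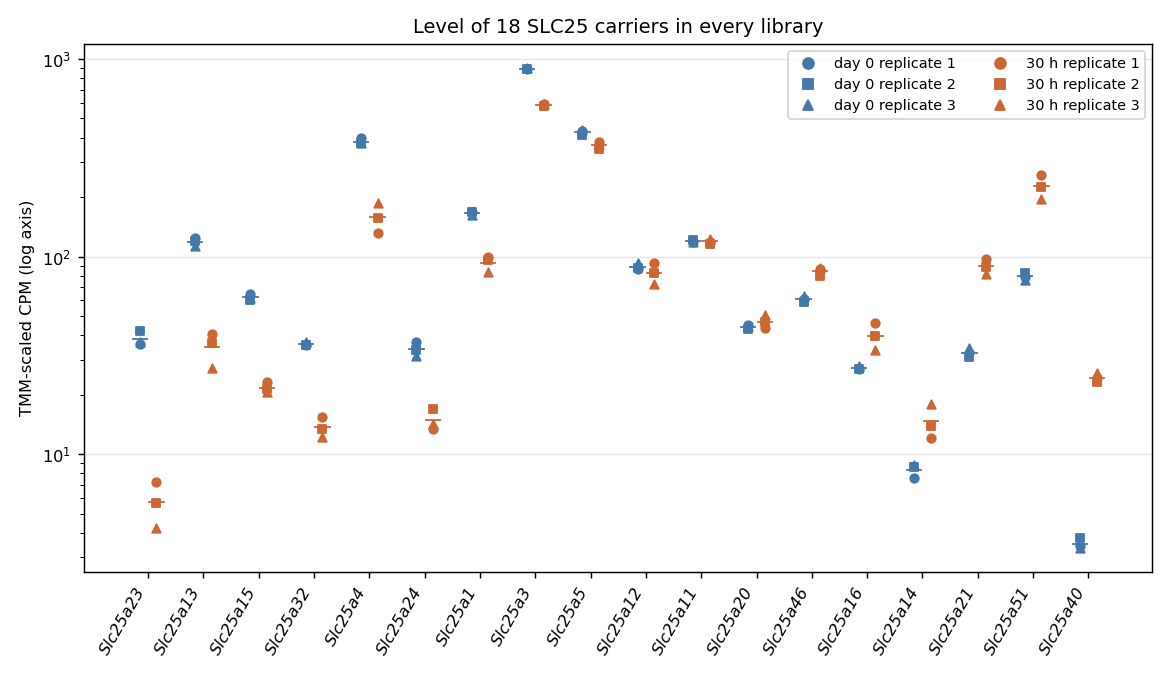
TMM-scaled CPM (y axis, log scale) of 18 SLC25 carriers in each of the 6 libraries, day 0 in blue and 30 h in orange, with a marker shape per replicate and a short line at each group mean. Carriers run from the largest fall of the 18, Slc25a23, to the largest rise, Slc25a40, and the groups of Slc25a11, Slc25a12 and Slc25a20 overlap.

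The calcium-regulated ATP-Mg/phosphate carriers set the total adenine nucleotide content of the matrix. Slc25a23 showed the largest fall among carriers of at least 10 CPM, with 35.96, 41.96 and 37.06 CPM at day 0 and 7.25, 5.66 and 4.22 CPM at 30 h. The groups lay far apart, a 6.66-fold difference (log2 change -2.73 ± 0.19 SE, edgeR adjusted p = 8.3665e-06). Slc25a24 went from 36.9, 33.4 and 31.4 CPM to 13.3, 16.9 and 14.2 CPM, a 2.29-fold fall with no overlap (edgeR adjusted p = 7.4009e-05). Slc25a25, another carrier of this type, did not pass, with 21.6 ± 0.777 CPM at day 0 and 21.6 ± 5.08 CPM at 30 h (log2 change 0.0024 ± 0.17 SE, edgeR adjusted p = 0.9907). Its share of the counts per kilobase of the 3 genes went from 13.88%, 13.59% and 14.03% to 38.95%, 32.03% and 29.47%, a rise of 19.7 percentage points in a library-internal measure (exact permutation p = 0.1). Slc25a41, a relative without the calcium-sensing part, had 5 counts at day 0 and 0 at 30 h. Slc25a54 had 0 counts in all 6 libraries, which allows a level of at most 0.189 CPM in 30 h replicate 3, the highest such limit among them. A count of 0 is here read as up to 3 counts, for counting error only.

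Slc25a3 brings in the phosphate that ATP synthase consumes (chromosome 10, 91116574 to 91124059). With 888, 888 and 901 CPM at day 0 and 593, 576 and 593 CPM at 30 h it had the highest CPM of the family in each library, and both groups were tight. It fell 1.52-fold (log2 change -0.60 ± 0.08 SE, edgeR adjusted p = 0.00028742) and kept this call under all 17 other settings.

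Carriers of citrate and dicarboxylates link the citric acid cycle to the cytosol. Slc25a1, the citrate exporter that feeds lipid synthesis, stood at 168, 169 and 161 CPM at day 0 and 99.6, 95.8 and 83.2 CPM at 30 h. The groups were well separated (1.79-fold lower, log2 change -0.84 ± 0.10 SE, edgeR adjusted p = 0.0001322), and with each library's trend on GC content removed the log2 change was -0.37, still past the threshold. Slc25a10, the dicarboxylate carrier, fell 2.28-fold, from 84.4 ± 4.86 to 37.0 ± 5.19 CPM (edgeR adjusted p = 7.0585e-05). Slc25a11, which exchanges oxoglutarate for malate, gave 119, 122 and 118 CPM at day 0 and 119, 116 and 123 CPM at 30 h. Its groups overlap throughout (log2 change -0.0011 ± 0.086 SE, edgeR adjusted p = 0.9913), although on unscaled totals, which moved the median of all genes to -0.58, it was -0.49 and passed as lower. Its exons share 189 bases with Rnf167 on the other strand, a gene with a log2 change of 0.97, and the strand setting of the counting is not known here. Within libraries Slc25a10 held 30.2% ± 0.991 of the counts per kilobase of Slc25a10 and Slc25a11 at day 0 and 16.0% ± 2.29 at 30 h. Slc25a21, the carrier of oxoadipate and oxoglutarate, went the other way. Its libraries gave 32.6, 31.0 and 34.3 CPM at day 0 and 97.6, 88.4 and 81.3 CPM at 30 h, a 2.73-fold rise with no overlap (log2 change 1.45 ± 0.11 SE, edgeR adjusted p = 1.014e-05), and kept the call under all 17 other settings.

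Slc25a12 (aralar) and Slc25a13 (citrin) exchange aspartate for glutamate and complete the malate-aspartate shuttle with Slc25a11. Slc25a13 (chromosome 6, 6041218 to 6217173), the form known from liver, dropped from 124, 120 and 113 CPM to 40.8, 36.3 and 27.1 CPM. The highest 30 h library lay far below the lowest day 0 library (3.42-fold lower, log2 change -1.77 ± 0.15 SE, edgeR adjusted p = 2.4703e-05). Slc25a12, the form of muscle and brain, was at 86.4, 87.9 and 92.4 CPM and then at 93.2, 83.0 and 72.7 CPM, with overlapping groups (log2 change -0.10 ± 0.11 SE, edgeR adjusted p = 0.44889); it was called lower on unscaled totals and with upper-quartile scaling (-0.24, adjusted p = 0.033028). The share of Slc25a13 in the counts per kilobase of the pair was 73.5%, 72.6% and 70.3% at day 0 and 45.8%, 45.8% and 41.9% at 30 h, so that Slc25a12 became the more abundant form in every 30 h library (fall of 27.6 percentage points, exact permutation p = 0.1). Hepatoblast markers fell in the same libraries, and their part was not tested. In 30 h replicates 1, 2 and 3 the summed hepatoblast markers stood at 757, 2031 and 2215 CPM, the reverse of the order of Slc25a13. The promoter of Slc25a13 (chr6:6217124-6217423, minus strand, RefSeq GRCm38.p6) is shown because it carries an E-box as well as CCAAT, in capitals.
Slc25a13: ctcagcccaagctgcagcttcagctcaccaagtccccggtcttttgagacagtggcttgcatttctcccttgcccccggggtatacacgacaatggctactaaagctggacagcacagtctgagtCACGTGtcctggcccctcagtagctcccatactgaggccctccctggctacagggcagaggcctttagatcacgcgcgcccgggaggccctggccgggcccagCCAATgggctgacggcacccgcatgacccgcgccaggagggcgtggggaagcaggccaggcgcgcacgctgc
Of the glutamate carriers, Slc25a22 fell from 36.2 ± 3.08 to 21.7 ± 6.10 CPM (edgeR adjusted p = 0.010071), a call that was lost with the GC trend removed (adjusted p = 0.087905). Slc25a18 was called higher at very low level, 0.399 ± 0.0486 against 0.952 ± 0.355 CPM (edgeR adjusted p = 0.0093972), and its call was lost on unscaled totals (adjusted p = 0.065723). Slc25a18 had 93 counts over the 6 libraries, whereas Atp6v1e1, which overlaps 32 bases of its exons on the other strand and had a log2 change of 1.45, had 30995.

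**Figure D3:**
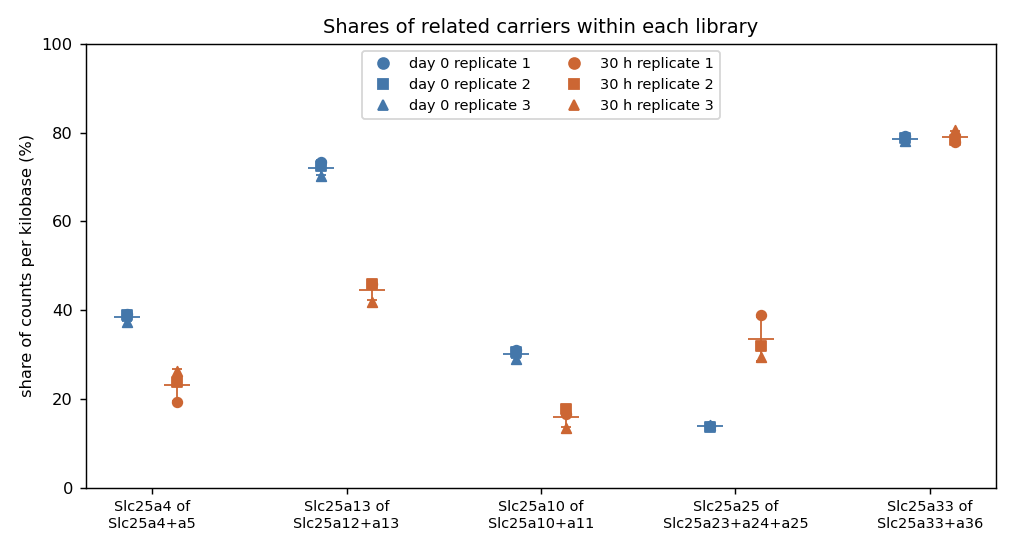
Share of counts per kilobase (y axis, percent) held by 1 carrier among related carriers within each library, with points per library, group means and SD bars. The share of Slc25a13 among Slc25a12 and Slc25a13 lies above 70% in the day 0 libraries and below 46% in the 30 h libraries, and the share of Slc25a33 among Slc25a33 and Slc25a36 overlaps between groups.

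Carriers of amino acids and glutathione gave 1 rise and 3 falls among the 4 tested, beside 34.4% higher and 40.1% lower of all genes. Slc25a40 (chromosome 5, 8422850 to 8454797), named with Slc25a39 as a carrier of glutathione into mitochondria in human cells, stood at 3.42, 3.75 and 3.34 CPM at day 0 and 24.3, 23.1 and 25.7 CPM at 30 h. Among the 38 carriers tested it had the largest rise, 6.94-fold, and its 30 h libraries were close together (log2 change 2.79 ± 0.12 SE, edgeR adjusted p = 1.0268e-06). Its transcript is poor in GC (39.4%), and with the GC trend removed the log2 change was 2.17. Even at 30 h it remained a minor carrier per kilobase, at 2.90 ± 0.156 CPM. Slc25a39, outside the set chosen here, rose 2.78-fold.

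Slc25a15 imports ornithine for the urea cycle and arginine metabolism (chromosome 8, 22375551 to 22398597). It went from 64.8, 60.3 and 62.0 CPM to 23.1, 21.3 and 20.6 CPM, a 2.87-fold fall with narrow groups (log2 change -1.52 ± 0.10 SE, edgeR adjusted p = 5.2871e-06). Slc25a2, a second ornithine carrier, had 2 counts over the day 0 libraries and 27 over the 30 h libraries. The ratio was 26.3 after scaling (95% exact counting interval 6.60 to 228, for counting error only). It did not pass the filter on low counts. It entered the test only with no filter or with 1 library left out, and was then called higher. With a library left out, it entered through the 30 h libraries, where it was high, so these calls are no separate support for a rise. Slc25a29, a carrier of basic amino acids, fell 6.14-fold at low level (3.40 ± 0.0913 to 0.559 ± 0.171 CPM, edgeR adjusted p = 2.8232e-05). It had 117, 118 and 115 counts at day 0 and 9, 8 and 12 at 30 h. Slc25a29 passed the filter on low counts only through day 0, where it was high, so its call is no separate support for the fall. Slc25a44, which carries branched-chain amino acids, fell 1.58-fold from 52.4 ± 2.43 CPM (edgeR adjusted p = 0.0053787). Promoter windows of Slc25a40 (chr5:8422588-8422887, plus strand) and Slc25a15 (chr8:22398228-22398527, minus strand), both from RefSeq GRCm38.p6 (Slc25a15 has a further window with none of the 4 motifs), are given side by side as those of a carrier that rose and one that fell. Both windows shown are rich in GC, at 79.0% each, and the only capitals are the E-box of Slc25a15. The further Slc25a15 window (chr8:22398572-22398871) has 60.7% GC, so the equal GC depends on the window shown.
Slc25a40: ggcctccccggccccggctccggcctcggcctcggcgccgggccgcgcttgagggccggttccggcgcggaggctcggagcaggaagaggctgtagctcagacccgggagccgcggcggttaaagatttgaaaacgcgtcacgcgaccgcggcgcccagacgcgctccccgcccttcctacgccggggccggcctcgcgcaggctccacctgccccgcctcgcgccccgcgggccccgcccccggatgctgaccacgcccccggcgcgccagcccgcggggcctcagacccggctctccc
Slc25a15: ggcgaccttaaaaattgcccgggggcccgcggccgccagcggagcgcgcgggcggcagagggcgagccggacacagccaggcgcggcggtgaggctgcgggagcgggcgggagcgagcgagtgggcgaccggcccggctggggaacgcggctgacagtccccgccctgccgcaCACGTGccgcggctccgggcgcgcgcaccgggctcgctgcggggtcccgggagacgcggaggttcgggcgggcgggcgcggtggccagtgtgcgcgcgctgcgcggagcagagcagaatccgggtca
None of the 4 motifs is in the Slc25a40 window, which says only that these letters are absent from those 300 bases.

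Slc25a20 carries acylcarnitines inward for fatty acid oxidation. Its values of 45.1, 42.9 and 44.7 CPM at day 0 and 43.4, 46.7 and 50.3 CPM at 30 h overlapped (log2 change 0.08 ± 0.10 SE, edgeR adjusted p = 0.46872), and on unscaled totals the sign turned, to -0.41, and passed as lower.

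Cofactor and nucleotide carriers split. Slc25a51, the carrier that supplies NAD to the matrix (chromosome 4, 45395923 to 45408766), went from 78.8, 82.7 and 76.5 CPM to 260, 226 and 196 CPM. Every 30 h library exceeded every day 0 library by more than the spread in either group (2.86-fold, log2 change 1.52 ± 0.12 SE, edgeR adjusted p = 1.7435e-05), and the call held under all 17 other settings. Slc25a51 held 1.49% ± 0.0681 of the family's counts per kilobase at day 0 and 5.70% ± 0.721 at 30 h. Slc25a32, which brings in folate and flavin cofactor, fell from 35.7, 35.5 and 36.9 CPM to 15.4, 13.4 and 12.2 CPM, with groups far apart (2.63-fold lower, log2 change -1.39 ± 0.12 SE, edgeR adjusted p = 1.8991e-05).

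Slc25a16, linked to coenzyme A in the matrix, was at 26.9, 26.9 and 27.9 CPM and then at 45.8, 39.5 and 33.7 CPM. The groups did not overlap (1.46-fold higher, edgeR adjusted p = 0.0050372), but the call was lost on unscaled totals (log2 change 0.06) and after removal of the GC trend (0.22). Slc25a26, for S-adenosylmethionine, fell 1.57-fold from 10.3 ± 0.392 CPM (edgeR adjusted p = 0.0033771). The other 4 did not pass: the pyrimidine nucleotide carriers Slc25a33 (21.3 ± 1.16 and 21.6 ± 2.31 CPM) and Slc25a36 (29.3 ± 0.971 and 29.2 ± 0.678 CPM), the peroxisomal carrier Slc25a17 (89.7 ± 1.73 and 88.6 ± 1.06 CPM) and the coenzyme A carrier Slc25a42 (6.91 ± 0.542 and 9.07 ± 2.43 CPM). Of these, Slc25a17 and Slc25a36 were called lower with the GC trend removed (log2 changes -0.24 and -0.53), and Slc25a42 was called higher under 4 settings, among them without 30 h replicate 3 (0.59, edgeR adjusted p = 0.0039702). Slc25a33 made up 78.7% ± 0.577 of the counts per kilobase of Slc25a33 and Slc25a36 at day 0 and 78.9% ± 1.38 at 30 h, and these shares overlapped (exact permutation p = 0.9).

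Among the carriers that resemble uncoupling proteins, Slc25a14 rose from 7.55, 8.57 and 8.80 CPM to 12.09, 13.95 and 18.01 CPM. Its groups did not overlap (1.76-fold, log2 change 0.82 ± 0.17 SE, edgeR adjusted p = 0.0024658), but on unscaled totals it was 0.33 and missed the threshold. Slc25a27 fell at very low level (0.865 ± 0.0453 to 0.365 ± 0.158 CPM, edgeR adjusted p = 0.011432). It had 29, 30 and 30 counts at day 0 and 11, 4 and 5 at 30 h. It passed the filter on low counts through day 0, where it was high, which limits this call. Slc25a30 missed the threshold, at 27.4 ± 1.20 CPM and then 22.7 ± 2.19 CPM (edgeR adjusted p = 0.056304), though its groups did not overlap and 6 of 17 other settings called it lower.

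Members with a less settled substrate included Slc25a46, an outer membrane protein that takes part in mitochondrial shape. It stood at 60.8, 58.6 and 63.1 CPM at day 0 and 86.7, 79.6 and 87.2 CPM at 30 h, with no overlap (1.39-fold, log2 change 0.47 ± 0.09 SE, edgeR adjusted p = 0.0018222). This direction depended on the processing: it was -0.017 in log2 on unscaled totals and -0.054 after removal of the GC trend, neither past the threshold. Slc25a45 fell 1.76-fold (21.7 ± 0.304 to 12.3 ± 2.35 CPM, edgeR adjusted p = 0.0011448). Slc25a48 had 190 counts over the day 0 libraries and 2 over the 30 h libraries. The ratio was 48.8 after scaling (95% exact counting interval 13.3 to 406, for counting error only). It passed the filter on low counts only through the day 0 libraries, where it was high. Its call of lower (edgeR adjusted p = 6.1241e-05) is therefore no separate support for the fall. Slc25a47, a carrier known from hepatocytes, missed the threshold, at 3.42 ± 0.415 CPM and then 2.90 ± 0.870 CPM (edgeR adjusted p = 0.35765), beside the fall of all 8 hepatoblast markers. Neither did Slc25a35 (1.21 ± 0.101 and 0.918 ± 0.335 CPM), Slc25a43 (0.689 ± 0.206 and 0.840 ± 0.697 CPM) or Slc25a53 (5.23 ± 1.08 and 7.68 ± 2.38 CPM; called higher without 30 h replicate 2 and with the replicate block, log2 changes 0.79 and 0.53). Slc25a34, with 8 counts at day 0 and 1 at 30 h, was not tested.

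The transcripts of the carriers that rose were poorer in GC (median 43.4%) than those of carriers that fell (52.6%) or did not pass (49.0%). The Spearman rho between GC content and log2 change was -0.39 over the 38 carriers and -0.20 over all genes tested, a description across genes that share libraries. With each library's GC trend removed, 6 carriers were higher and 19 lower (32.3% and 41.4% of all genes in that setting), and 5 of the 7 rises and 16 of the 18 falls were among them. Unscaled totals gave 3 higher and 28 lower and placed 22.3% of all genes higher and 54.4% lower; the rises that passed in that setting were 3 of the 7, Slc25a21, Slc25a40 and Slc25a51.

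**Figure D4:**
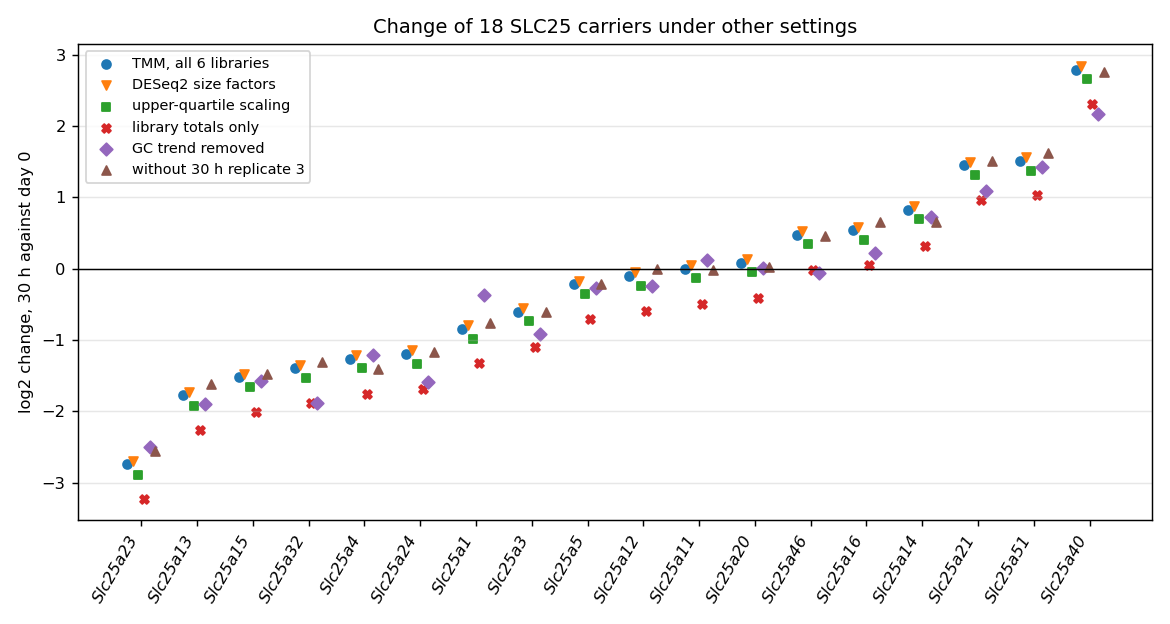
Log2 change between 30 h and day 0 (y axis) of 18 SLC25 carriers under TMM scaling and 5 other settings (marker shapes). Slc25a21, Slc25a51 and Slc25a40 stay above 0 and the falls from Slc25a23 to Slc25a5 stay below 0 in all 6 settings, while Slc25a46 crosses 0 on unscaled totals and after removal of the GC trend.

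Related genes were counted from lists of mitochondrial transport. Of 13 genes that import carriers, 5 rose and 5 fell, shares near the 34.4% and 40.1% of all genes. Timm8b, a small chaperone of the space between the membranes, went up 3.27-fold (67.6 ± 4.32 CPM, then 221 ± 63.9 CPM; edgeR adjusted p = 0.00010437), whereas Tomm40, the outer membrane pore, went down 2.90-fold (268 ± 2.83 CPM, then 92.4 ± 4.27 CPM; edgeR adjusted p = 3.3926e-06). Tomm70a, the receptor that recognises carrier proteins, fell 1.21-fold, and Timm22, the channel that inserts them, did not pass (69.1 ± 2.15 and 84.6 ± 15.2 CPM). Of 5 carrier-fold proteins with other names, Ucp2 rose 3.33-fold (368 ± 10.8 CPM, then 1226 ± 306 CPM; edgeR adjusted p = 6.3509e-05), Mtch2 rose 1.81-fold, Mtch1 did not pass, and Ucp1 and Ucp3 were not tested. In 30 h replicates 1, 2 and 3 Ucp2 stood at 1510, 1265 and 903 CPM.

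Inner membrane transport outside the family gave 7 higher and 6 lower of 14, beside 34.4% and 40.1% of all genes. Mcub, a subunit that restrains the calcium uniporter, rose 21.3-fold (1.49 ± 0.179 CPM, then 31.96 ± 4.16 CPM; edgeR adjusted p = 7.6372e-07), while Mcu, the pore, fell 1.39-fold. Both subunits of the pyruvate carrier rose, Mpc1 2.68-fold and Mpc2 2.25-fold. Of the sideroflexins, which include a serine carrier, Sfxn1 fell 1.69-fold from 214 ± 6.03 CPM, Sfxn2, Sfxn3 and Sfxn5 fell and Sfxn4 rose. The outer membrane channels Vdac1 and Vdac2 fell 1.47-fold and 2.04-fold, and Vdac3 rose 1.41-fold. Of the 4 family members set aside for iron and heme, 3 rose, beside 34.4% of all genes, and Slc25a28 did not pass. Slc25a37, the iron importer, went from 57.3 ± 3.35 to 1659 ± 237 CPM.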

How the data were processed

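Per the file headers, the authors deposited 1 table per library of raw whole-number counts per gene. Tools named in the submitters' processing notes are HTSeq 0.6.1p1, STAR, cutadapt 1.13 and DESeq2, with mm10 as the build; their settings, strand included, are not given there. Of the 54232 gene IDs, 54165 were found in GENCODE M21 (GRCm38), which gave symbols, positions, exonic lengths and GC content. All 37 mitochondrial-genome genes had 0 counts in each library.

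Samples were grouped by their labels. Counts were filtered with edgeR's filterByExpr, scaled by TMM and tested with edgeR's quasi-likelihood F test (edgeR 4.0.16, R 4.3.3, robust), with Benjamini-Hochberg adjustment over all 16150 genes and a threshold of 0.05; standard errors were derived from the F statistic. For shares within libraries, exact permutation tests were two-sided (scipy 1.17.1). Alternatives were other scalings and filters, DESeq2 1.42.0, limma-trend (limma 3.58.1), removal of GC trends, the replicate number as a block, and each library left out. No pair of replicates was as close as sampling noise (chi-square per degree of freedom at least 4.27).

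The carriers and gene lists were chosen with earlier results of these data known. Values in every library are given for the 6 carriers that rose most and the 6 that fell most among those past the threshold with at least 10 CPM in a group, the 5 highest per kilobase, and 10 carriers of central pathways. Promoter windows were shown for 5 carriers chosen after their values were seen. The values of 1 carrier that was tested are not reported here, though it is kept in the counts.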

Additional observations from a re-analysis of the deposited data

How the results depend on the processing

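Counts of carriers past the threshold were 7 higher and 18 lower of 38 tested, beside 34.4% and 40.1% of all genes. Leaving out each library in turn gave 7 to 9 higher and 17 to 18 lower, with a median log2 change between -0.3557 (without 30 h replicate 3) and -0.2241. For the related transport genes, 15 higher and 13 lower of 33 tested, these ranges were 13 to 16 higher and 11 to 16 lower. Over all genes, leaving out each library gave 30.8% to 37% higher and 36.5% to 41.7% lower. Scaling by totals only gave 3 carriers higher and 28 lower, and 9 related genes higher, beside 22.3% of all genes higher and 54.4% lower. The median of -0.2595 was -0.2055 with DESeq2 size factors, -0.7495 with totals only, -0.3914 with upper-quartile scaling, -0.4176 when all low genes were kept, -0.2013 with DESeq2, and -0.3007 with the replicate block and the GC trend removed together. Among carriers past the threshold with TMM or in the other setting, signs turned with totals only for Slc25a20 (-0.4087), Slc25a25 (-0.4844), Slc25a33 (-0.4682) and Slc25a46 (-0.01684), and for Slc25a46 also with the GC trend removed (-0.05379; -0.05455 with the block as well); the cause was not tested. Others that passed in neither setting also changed sign in places, such as Slc25a42 and Slc25a43 with totals only and Slc25a11, Slc25a25 and Slc25a47 with the GC trend removed. Slc25a5 lost its call under 10 of 17 settings, every one that left out a library other than 30 h replicate 3 among them (adjusted p = 0.08605 to 0.1599 in edgeR). With the replicate number as a block 8 carriers were higher and 17 lower, beside 32.5% and 38.9% of all genes. Same-numbered libraries had correlations of deviations of -0.105, 0.105 and -0.0293, so the numbers were not taken to pair the samples. Depth limits the 5 carriers not tested, all below 1 CPM in every library.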
